A study of Mus musculus with 12 samples.

Results

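The DNA replication genes were 39 genes of the mouse replication machinery, named one by one as members and matched by symbol in the deposited table of 24318 genes. All 39 were found and all 39 passed the filter on low counts, so every member was tested. They were grouped by role into origin licensing (4 genes), the MCM helicase (6), helicase activation (6), primase and polymerases (8), the sliding clamp and its loader (6), single-strand binding (3), Okazaki fragment maturation (2) and nucleotide supply (4). Polyadenylated RNA had been sequenced from immortalized mouse embryonic fibroblasts of genotype MafF-/-::MafG-/-::MafK-/-, which lack the 3 small Maf proteins. The 4 groups of 3 libraries were T-N2G cells under DEM, mock cells under DEM, T-N2G cells in vehicle and mock cells in vehicle. T-N2G is a tethered heterodimer of Nrf2 and MafG (the genotype label spells it T-NG2), and DEM is diethyl maleate, an electrophile, given at 100 µM for 12 h. All 4 groups, the mock cells included, carried the 3 deletions and were grown in 10% serum. The labels give neither the promoter that drives T-N2G, nor whether a line was 1 clone, nor what the vehicle was. Whether the replicates of a group came from separate cultures is not stated either, so p-values measure the spread between these libraries, which may be technical.

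DNA replication begins when the origin recognition complex, Cdc6 and Cdt1 load the ring-shaped Mcm2 to Mcm7 helicase onto origins in G1 phase. Cdc45, the GINS complex and Mcm10 turn the loaded helicase on in S phase, primase and polymerase alpha start each strand, and polymerases delta and epsilon extend it on the Pcna clamp. Many of these genes are transcribed at the entry into S phase under E2F factors, and in fibroblasts their RNA is commonly read as a sign of proliferation. Nrf2 with a small Maf partner binds antioxidant response elements and induces detoxification genes, and electrophiles such as DEM release Nrf2 from its inhibitor Keap1.

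The promoters are shown first, because an E2F-type sequence, which the choice of members did not use, stood in a larger share of their windows than of all windows. RefSeq windows (build GRCm38.p6) of 300 bases, 250 before and 50 after the gene start, were available for 32 of the 39 members. An E2F 8-mer (TTTCGCGC, TTTGGCGC, TTTCCCGC or TTTGCCGC, on either strand) stood in 13 of the 32 member windows, 40.6%, against 2.60% of 27025 windows of all genes. The first window below is that of Mcm5, a helicase subunit with 2 overlapping matches. The second is that of Rpa1, the member with the largest difference between T-N2G and mock cells, which held none. Capitals mark the E2F 8-mer in Mcm5 and the CCAAT box in Rpa1.
Mcm5, chr8:75109259-75109558, plus strand: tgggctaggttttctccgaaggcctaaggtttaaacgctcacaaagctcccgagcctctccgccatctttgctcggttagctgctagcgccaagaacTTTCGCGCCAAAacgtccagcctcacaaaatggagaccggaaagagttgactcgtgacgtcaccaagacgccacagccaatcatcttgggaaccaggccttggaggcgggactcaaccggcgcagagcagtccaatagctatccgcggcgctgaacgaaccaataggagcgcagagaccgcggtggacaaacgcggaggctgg
Rpa1, chr11:75348334-75348633, minus strand: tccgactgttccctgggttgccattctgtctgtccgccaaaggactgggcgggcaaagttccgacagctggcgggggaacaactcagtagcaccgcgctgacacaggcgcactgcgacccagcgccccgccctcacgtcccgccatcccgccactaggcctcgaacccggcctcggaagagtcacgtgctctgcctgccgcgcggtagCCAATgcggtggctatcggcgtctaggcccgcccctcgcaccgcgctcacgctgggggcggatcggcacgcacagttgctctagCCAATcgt

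Matches in 8 further members are given with 10 bases on each side, because these genes recur below. Each is written 5′ to 3′ on the strand of its gene, with the matched letters in capitals (Rfc3 has a second match within its flank), and a match that lies on the other strand reads as the reverse complement.
Orc1, chr4:108579417-108579444, plus strand: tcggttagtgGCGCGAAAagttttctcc
Cdc6, chr11:98908003-98908030, plus strand: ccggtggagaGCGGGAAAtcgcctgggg
Mcm3, chr1:20820276-20820303, minus strand: aacttccgtgGCGGGAAAacttgggaag
Mcm6, chr1:128359794-128359825, minus strand: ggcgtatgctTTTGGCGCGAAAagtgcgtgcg
Mcm7, chr5:138171850-138171877, minus strand: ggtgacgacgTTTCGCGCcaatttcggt
Pola1, chrX:93632276-93632303, minus strand: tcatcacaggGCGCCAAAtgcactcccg
Rfc3, chr5:151651201-151651228, minus strand: cgtcgcacgcTTTCGCGCtcGCGGGAAA
Lig1, chr7:13278842-13278869, plus strand: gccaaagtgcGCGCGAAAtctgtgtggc

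The 13 members with a match were Orc1, Cdc6, Cdt1, Mcm3, Mcm5, Mcm6, Mcm7, Gins3, Pola1, Pold1, Pole2, Rfc3 and Lig1. Of these, Mcm3, Mcm6 and Mcm7 held a further match outside the stretch shown above. The Mcm6 stretch shown is itself a run of overlapping matches, like that of Mcm5. The CCAAT box stood in 21 of the 32 windows, 65.6%, against 41.1% of all windows. The core of the antioxidant response element, TGACNNNGC on either strand, stood in 8 of 32, 25%, against 14% of all windows, and Rpa1 was not among them. The cell cycle element TTTGAA was in 5 of 32, 15.6%, against 20.2% of all windows. These matches describe letters in a window and not sites in use.

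The members were well expressed in all 12 libraries. Their mean FPKM, the length-scaled fragment value of the deposited table, had a median of 41.9 over the 39 genes, against 11.3 over all 12469 tested genes. Pcna, the sliding clamp, was highest at 204 FPKM, and Orc1, the largest subunit of the origin recognition complex, was lowest at 9.62 FPKM. The lowest member in any library was Rpa3 with 118 fragments and the highest was Rrm1 with 10517. The 6 subunits of the MCM ring lay within a 1.42-fold range, between 77.9 FPKM for Mcm4 and 111 FPKM for Mcm7. The 3 subunits of the RPA trimer did not lie together, since Rpa1 was at 110 FPKM, Rpa2 at 28.2 FPKM and Rpa3 at 17.5 FPKM. Licensing factors spanned 9.62 FPKM for Orc1 to 63.2 FPKM for Orc6. Among the polymerase genes Pole2, the second subunit of polymerase epsilon, was lowest at 13.9 FPKM and Pold2, the second subunit of polymerase delta, was highest at 64.7 FPKM. Of the nucleotide suppliers Rrm1 and Rrm2, the subunits of ribonucleotide reductase, had 114 and 107 FPKM, while Tk1 had 54.5 FPKM and Tyms 22 FPKM.

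**Figure D1:**
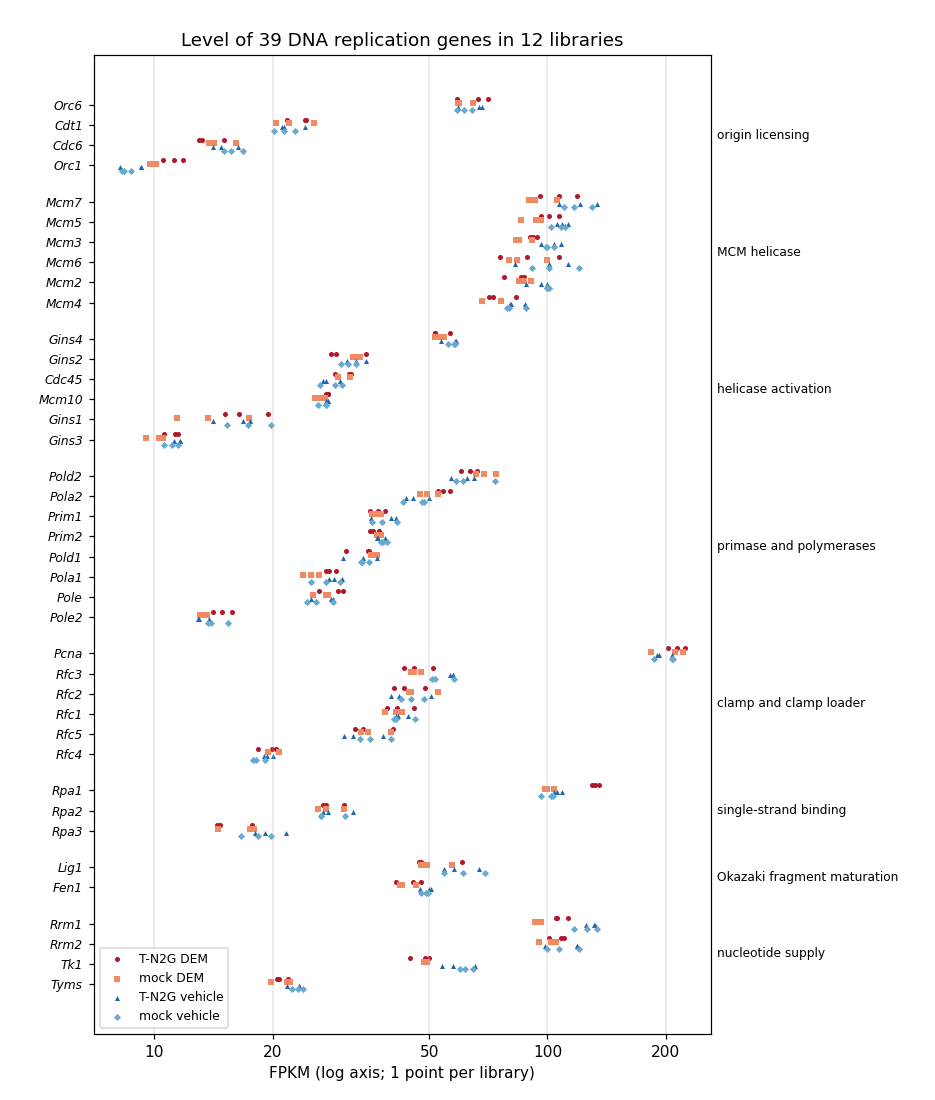
FPKM on a log axis of the 39 members, sorted by role and mean level, with 1 point per library and the 4 groups by colour and shape. The 4 groups lie close together for nearly every gene between the mean of Orc1 (9.62 FPKM) and that of Pcna (204 FPKM), and the T-N2G DEM libraries of Rpa1 stand to the right of its other libraries.

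Library totals were 18863560 to 23095692 fragments. Mafg had 95.7 to 161 CPM (fragment counts scaled by the effective library size) in the T-N2G libraries and 0.472 to 0.932 CPM in the mock libraries, and Nfe2l2, the Nrf2 gene, 454 to 701 CPM and 47.4 to 66.7 CPM, as the labels have it. Maff had 3.08 to 5.02 CPM in the T-N2G libraries and 3.35 to 5.69 CPM in the mock libraries, and Mafk 1.42 to 2.58 CPM and 1.75 to 2.68 CPM, so neither was at 0 in these deleted lines. Which part of each gene was deleted is not given in the sources used here, so these fragments do not check the deletions. Of 8 fibroblast markers 7 had a mean above 1 FPKM (Vim 1599 FPKM). Of the leukocyte list Cd3e was at 0 in every library and Cd68 was highest at 1.6 FPKM, with sums of 1.28 to 2.44 FPKM. The summed fibroblast markers were 3285 to 3810 FPKM in T-N2G cells under DEM, 3890 to 4382 in mock cells under DEM, 3917 to 4584 in T-N2G cells in vehicle and 4100 to 4545 in mock cells in vehicle. The summed epithelial markers were between 3.05 and 17.6 FPKM and the skeletal muscle ones between 0.829 and 5.76 FPKM in all libraries. The neural markers summed to 57.6 to 94.2 FPKM, with Nes at a mean of 67.7 FPKM, and their groups overlapped. The endothelial markers summed to 0.976 to 1.58 FPKM in T-N2G cells under DEM, 1.25 to 2.22 in mock cells under DEM, 1.98 to 2.86 in T-N2G cells in vehicle and 1.81 to 3.04 in mock cells in vehicle. The fibroblast and endothelial sums were thus lower under DEM without overlap in T-N2G cells, and their part in the results below was not tested.

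The members' libraries also differed by replicate number. Replicate 2 had the highest CPM in all 4 groups for 21 of the 39 members, 53.8%, against 17.4% of tested genes. Among these were Mcm3, Mcm4, Mcm6 and Mcm7, Cdc6, Cdc45, Pola1, Fen1 and Lig1. Replicate 1 had that place for Prim1 alone and replicate 3 for 0 members. Replicates 1 and 2 share a series of library codes and replicate 3 has another, which holds 1 library of each group. Values with the replicate block, a fit that lets each replicate number have its own level, are therefore given beside those without it where the calls or counts differ.

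**Figure D2:**
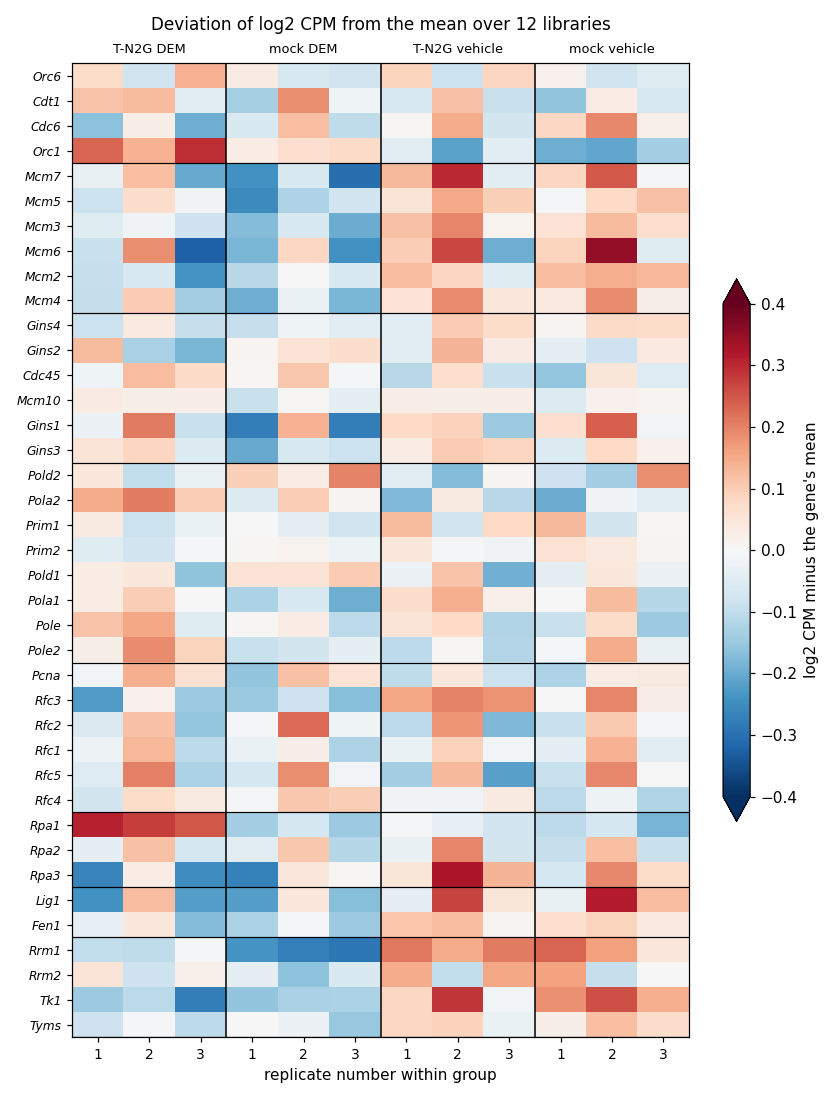
Deviation of each member's log2 CPM from its mean over the 12 libraries, with libraries in columns by group and replicate number, and members in rows by role (black lines) and level. In the second column of every group 21 of the 39 members have their highest value of that group, the MCM and Rrm1 rows are bluer in the DEM columns, and the Rpa1 row is red in the T-N2G DEM columns only.

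DEM was set against vehicle within each cell line, the T-N2G cells with the tethered heterodimer and the mock cells without it. Changes were small: the largest was a 1.33-fold lower level of Rrm1 in mock cells. In T-N2G cells 3 members rose (Rpa1, Orc1 and Pola2) and 3 fell (Rrm1, Rfc3 and Tk1), by edgeR's quasi-likelihood test with a threshold of 0.05 on p adjusted over the whole table (Benjamini-Hochberg). Over all tested genes 10.1% rose and 7.55% fell in this comparison, so both shares of the members (7.69% each) were near the background. In mock cells 1 member rose (Orc1) and 4 fell (Rrm1, Tk1, Mcm3 and Mcm5, 10.3% of members), against 7.76% of all tested genes higher and 6.18% lower. Rrm1 and Tk1 fell and Orc1 rose in both cell lines. In bulk RNA, fewer cells in S phase and less RNA of these genes per cell cannot be told apart.

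The members leaned to lower levels under DEM, more so in mock cells than in T-N2G cells. In T-N2G cells 23 log2 differences were below 0 and 16 above, and in mock cells 25 and 14. In T-N2G cells 17 members (43.6%) were lower under DEM in all 3 same-numbered pairs, against 35.2% of tested genes, and 9 were higher, against 33.7%. In mock cells 22 members (56.4%) were lower in all 3 pairs, against 34.5% of tested genes, and 8 were higher, against 32.6%. With the replicate block 5 members rose and 13 fell in T-N2G cells (12.8% and 33.3%, against 22.8% and 22.2% of tested genes). In mock cells 1 rose and 16 fell (2.56% and 41%, against 20.9% and 21.9% of tested genes). The groups did not overlap in CPM for 4 higher and 6 lower members in T-N2G cells (10.3% and 15.4%, against 18.2% and 15.6% of tested genes). The lower share there was that of the background. In mock cells 3 higher and 13 lower members did not overlap (7.69% and 33.3%, against 17.2% and 16.3%). The members' median log2 fold change was -0.04 in T-N2G cells and -0.11 in mock cells, against -0.00 and -0.01 over all tested genes. Member fragments made up 0.490 ± 0.0304% of all fragments in T-N2G cells under DEM, 0.468 ± 0.0243% in mock cells under DEM, 0.512 ± 0.0306% in T-N2G cells in vehicle and 0.514 ± 0.0293% in mock cells in vehicle (SD, n = 3 each). These shares overlapped between DEM and vehicle in both cell lines, while in each of the 6 same-numbered pairs the DEM library had the lower share.

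**Figure D3:**
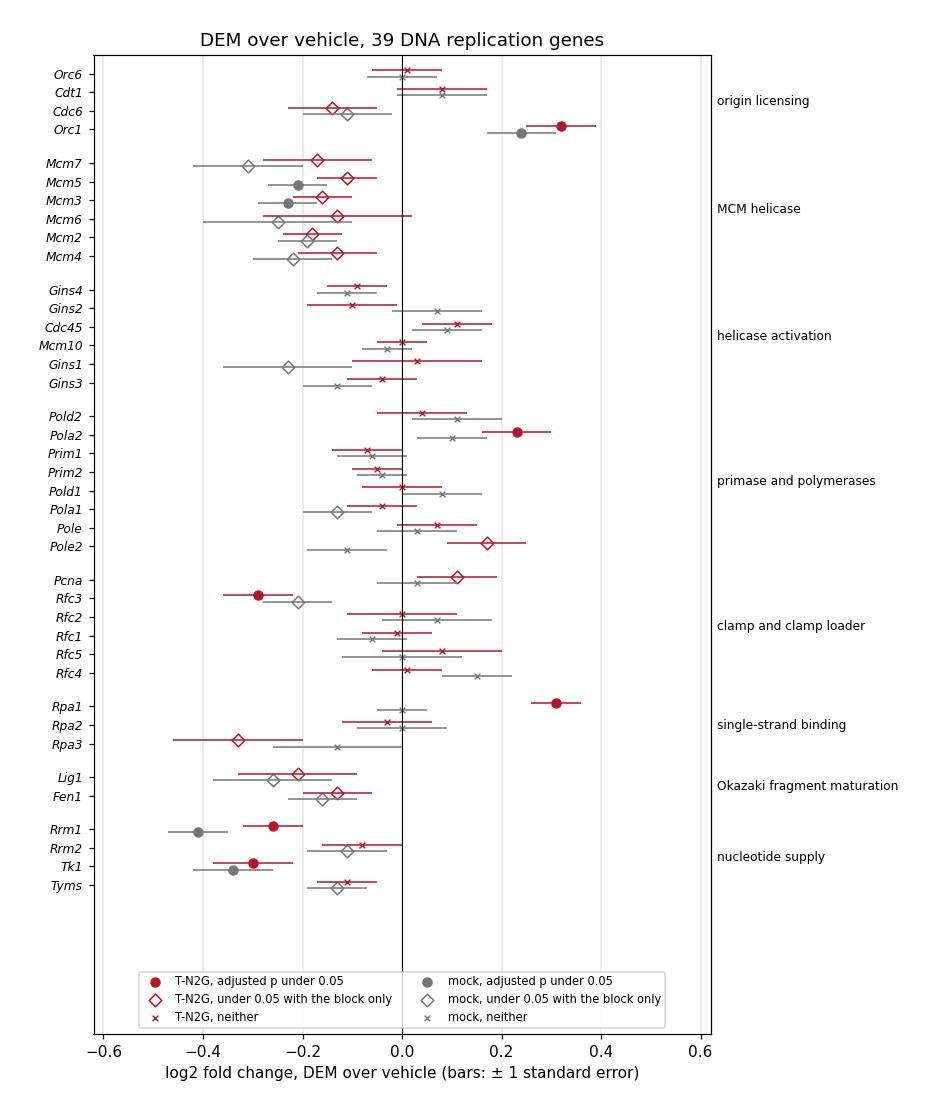
Log2 fold change of DEM over vehicle for each member, in T-N2G cells (red, upper mark) and mock cells (grey, lower mark), with bars of 1 standard error. Filled circles passed an adjusted p of 0.05, open diamonds passed it only with the replicate block, and crosses passed neither. The MCM, Okazaki fragment and nucleotide supply genes lie left of 0 in both cell lines, and Rpa1 is at 0.31 in T-N2G cells and 0.00 in mock cells.

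Origin licensing moved little apart from Orc1, the ATPase subunit of the origin recognition complex. Orc1 had 31.9, 29.9 and 33.3 CPM in T-N2G cells under DEM and 26.3, 23.4 and 26.3 CPM in T-N2G cells in vehicle. In mock cells it had 27.7, 28.4 and 28.6 CPM under DEM and 23.7, 23.5 and 24.7 CPM in vehicle. Every DEM library thus lay above every vehicle library of its cell line. The rise was 0.32 ± 0.07 (log2, SE; 1.25-fold, adjusted p = 0.00799, edgeR) in T-N2G cells and 0.24 ± 0.07 (1.18-fold, adjusted p = 0.0412) in mock cells. The call in T-N2G cells held without each library in turn but not with replicates 1 and 2 alone (adjusted p = 0.10). That in mock cells was lost without any 1 of 9 of the 12 libraries, all 6 mock libraries among them (highest adjusted p 0.110). With the block the adjusted p of Orc1 was 0.000254 in T-N2G cells and 0.00393 in mock cells (edgeR). Cdc6, which loads the helicase together with the origin recognition complex, had a log2 difference of -0.14 in T-N2G cells and -0.11 in mock cells, and passed in both only with the replicate block (adjusted p = 0.0149 and 0.0373). Its loading partner Cdt1 had 0.08 in both cell lines and passed neither test. Orc6, the most abundant licensing member, had 94.9, 85.2 and 99.2 CPM in T-N2G cells under DEM against 95.9, 85.0 and 95.6 CPM in vehicle. In mock cells Orc6 had 92.2, 86.3 and 85.3 CPM under DEM and 91.2, 85.2 and 87.2 CPM in vehicle, and the groups overlapped in both lines.

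All 6 subunits of the MCM helicase were lower under DEM in every same-numbered pair of both cell lines. Their log2 differences were -0.18 to -0.11 in T-N2G cells and -0.31 to -0.19 in mock cells. Of all tested genes, 35.2% in T-N2G cells and 34.5% in mock cells were lower in all 3 pairs. By edgeR without the block 0 of the 6 subunits passed in T-N2G cells and 2 of 6 in mock cells. Of tested genes 7.55% and 6.18% were called lower there. With the block all 6 passed in both lines, against 22.2% and 21.9% of tested genes called lower. By DESeq2, an alternative test, Mcm2 and Mcm3 passed in T-N2G cells (adjusted p = 0.0294 and 0.0463). It also called Mcm2 and Mcm7 in mock cells (adjusted p = 0.0240 and 0.0399) besides the 2 that edgeR called. Mcm3 had 250, 256 and 244 CPM in T-N2G cells under DEM and 280, 296 and 261 CPM in vehicle. In mock cells Mcm3 had 229, 248 and 225 CPM under DEM and 269, 282 and 271 CPM in vehicle, with no overlap in either line. In T-N2G cells its log2 difference of -0.16 did not pass (adjusted p = 0.0931, edgeR, and 0.00317 with the block). Its fall in mock cells was 0.23 on the log2 scale (SE 0.06, 1.17-fold, adjusted p = 0.0282) and was lost without any of 4 libraries (mock DEM replicates 1 and 3, mock vehicle replicates 2 and 3). With the block its adjusted p there was 0.000161 (edgeR).

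Mcm5, whose promoter is shown above, had 314, 350 and 330 CPM in T-N2G cells under DEM and 345, 370 and 356 CPM in vehicle. In mock cells Mcm5 had 279, 306 and 315 CPM under DEM and 332, 352 and 361 CPM in vehicle. Only the mock groups were apart. There Mcm5 fell by 0.21 on the log2 scale (SE 0.06, adjusted p = 0.0477, edgeR). Without the block this call was at the edge of the threshold, since it was lost without any 1 of 10 of the 12 libraries. The 2 whose removal kept it were T-N2G DEM replicate 1 and mock vehicle replicate 1. With the block the adjusted p of Mcm5 was 0.000303. Mcm7, the most abundant subunit, had 239, 265 and 212 CPM in T-N2G cells under DEM and 267, 300 and 237 CPM in vehicle. In mock cells Mcm7 had 206, 234 and 198 CPM under DEM and 259, 289 and 243 CPM in vehicle. Replicate 2 was the highest of each group, and the groups overlapped in T-N2G cells but not in mock cells. Mcm7 was 1.24-fold lower in mock cells (log2 -0.31 ± 0.11, SE), with an adjusted p of 0.0755 without the block and 8.67e-06 with it. Mcm2 had 270, 292 and 280 CPM in mock cells under DEM and 318, 323 and 320 CPM in vehicle, and its adjusted p was 0.0648 without the block and 0.00240 with it. Mcm4 and Mcm6 had log2 differences of -0.13 each in T-N2G cells and of -0.22 and -0.25 in mock cells. The Mcm7 value is uncertain in one respect, since its exons overlap those of Cops6 and Ap4m1 on the other strand and no strand setting of the counting is given in the sources used here.

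The factors that activate the helicase passed no test without the block in either cell line. Gins4, a GINS subunit and the most abundant of this role, had 60.7, 66.2 and 60.4 CPM in T-N2G cells under DEM and 62.6, 69.2 and 67.8 CPM in vehicle. In mock cells Gins4 had 60.5, 63.7 and 62.4 CPM under DEM and 65.0, 68.0 and 67.8 CPM in vehicle, where the groups did not overlap, and its log2 difference was -0.11 ± 0.06 (SE, adjusted p = 0.263, edgeR). Mcm10 differed least within this role, with log2 differences of 0.00 in T-N2G cells and -0.03 in mock cells. Cdc45, which travels with the helicase, had 0.11 and 0.09. Gins1 was at 0.03 in T-N2G cells and at -0.23 in mock cells, where it passed with the block only (adjusted p = 0.0343); the difference between the lines did not pass with or without the block (adjusted p = 0.384 and 1.00).

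Among primase and polymerase genes Pola2, the regulatory subunit of polymerase alpha, was the one called. It had 122, 127 and 118 CPM in T-N2G cells under DEM and 97.5, 113 and 102 CPM in vehicle, which did not overlap. In mock cells it had 106, 118 and 111 CPM under DEM and 95.9, 109 and 107 CPM in vehicle, which did. The rise in T-N2G cells was 0.23 ± 0.07 (log2, SE; 1.17-fold, adjusted p = 0.0472, edgeR) and was lost without any 1 of 10 of the 12 libraries, T-N2G vehicle replicate 2 and mock vehicle replicate 1 being the exceptions. With the block Pole2 also passed in T-N2G cells (log2 0.17, adjusted p = 0.0360) and Pola1, the catalytic subunit of polymerase alpha, in mock cells (log2 -0.13, adjusted p = 0.0125). Pold2 had 94.1, 85.5 and 89.9 CPM in T-N2G cells under DEM and 88.6, 81.1 and 92.1 CPM in vehicle. In mock cells Pold2 had 97.7, 93.4 and 105 CPM under DEM and 86.4, 83.3 and 104 CPM in vehicle, and the groups overlapped in both lines. Pold1 and Pole, the catalytic subunits of the polymerases that extend the strands, and the primase genes Prim1 and Prim2 lay between -0.07 and 0.08 in both cell lines and passed neither test.

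The sliding clamp itself showed no call without the block. Pcna had 215, 239 and 226 CPM in T-N2G cells under DEM and 202, 223 and 204 CPM in vehicle. In mock cells it had 194, 235 and 225 CPM under DEM and 199, 221 and 222 CPM in vehicle. The groups overlapped in both lines. Its log2 difference of 0.11 in T-N2G cells passed with the block only (adjusted p = 0.0358). Of the 5 clamp loader genes, Rfc3, a small subunit of the loader, had 44.1, 52.2 and 46.6 CPM in T-N2G cells under DEM and 57.4, 59.1 and 58.4 CPM in vehicle. In mock cells Rfc3 had 46.5, 48.7 and 45.8 CPM under DEM and 51.5, 59.0 and 52.5 CPM in vehicle. All DEM libraries were below all vehicle libraries of their line. Rfc3 fell by 0.29 on the log2 scale in T-N2G cells (SE 0.07, adjusted p = 0.0196, edgeR), which was lost without T-N2G DEM replicate 1 or 3 or T-N2G vehicle replicate 3 (highest adjusted p 0.0680). In mock cells its difference of -0.21 passed with the block only (adjusted p = 0.00315, 0.0794 without). The other loader genes Rfc1, Rfc2, Rfc4 and Rfc5 lay between -0.06 and 0.15 and passed neither test.

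Rpa1, the large subunit of the trimer that coats single-stranded DNA, stood apart from the other members. It had 388, 379 and 372 CPM in T-N2G cells under DEM and 312, 306 and 297 CPM in T-N2G cells in vehicle. In mock cells it had 285, 298 and 283 CPM under DEM and 291, 298 and 275 CPM in vehicle. The T-N2G DEM libraries lay above all 9 others, and the mock groups overlapped. The rise under DEM in T-N2G cells was 0.31 ± 0.05 (log2, SE; 1.24-fold, adjusted p = 0.00208, edgeR), it held without each library in turn (highest adjusted p 0.0111), and with replicates 1 and 2 alone it was 0.31 (adjusted p = 0.0453). In mock cells the difference was 0.00 ± 0.05 (adjusted p = 0.990). Neither partner of the trimer was called as higher. Rpa2 had -0.03 in T-N2G cells and 0.00 in mock cells. Rpa3, the smallest subunit, had 6.29, 7.73 and 6.37 CPM in T-N2G cells under DEM and 7.82, 9.48 and 8.31 CPM in vehicle, a log2 difference of -0.33 ± 0.13 that passed with the block only (adjusted p = 0.00893, 0.113 without).

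The genes of Okazaki fragment maturation passed in both cell lines with the block and in neither without it. Lig1, the ligase that seals the fragments, had 138, 178 and 140 CPM in T-N2G cells under DEM and 159, 197 and 169 CPM in vehicle. In mock cells Lig1 had 140, 168 and 145 CPM under DEM and 160, 203 and 178 CPM in vehicle. Replicate 2 was again the highest of each group, and groups overlapped, while every same-numbered pair was lower under DEM. The log2 difference was -0.21 in T-N2G cells (adjusted p = 0.275 without and 0.000471 with the block) and -0.26 in mock cells (0.18 and 8.56e-05). The flap nuclease gene Fen1 had -0.13 and -0.16, with adjusted p of 0.0163 and 0.00614 with the block.

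Of the genes of nucleotide supply, Rrm1 and Tk1 fell in both cell lines. Rrm1, the large subunit of ribonucleotide reductase, had 406, 405 and 433 CPM in T-N2G cells under DEM and 503, 482 and 502 CPM in vehicle. In mock cells Rrm1 had 369, 360 and 356 CPM under DEM and 511, 487 and 449 CPM in vehicle. No DEM library reached a vehicle library of its line. Rrm1 fell by 0.26 on the log2 scale in T-N2G cells (SE 0.06, 1.20-fold, adjusted p = 0.0118, edgeR) and by 0.41 in mock cells (SE 0.06, 1.33-fold, adjusted p = 0.00178). Both calls held without each library in turn, with adjusted p up to 0.0445 in T-N2G cells and 0.0113 in mock cells. With replicates 1 and 2 alone the adjusted p was 0.0618 in T-N2G cells and 0.0423 in mock cells.

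Tk1, the thymidine kinase of the salvage pathway, had 57.4, 58.9 and 52.4 CPM in T-N2G cells under DEM and 67.3, 77.5 and 63.1 CPM in vehicle. In mock cells Tk1 had 56.9, 58.0 and 58.2 CPM under DEM and 72.1, 76.0 and 70.3 CPM in vehicle. Again the DEM and vehicle groups were apart in both lines. Tk1 fell by 0.30 on the log2 scale in T-N2G cells (SE 0.08, adjusted p = 0.0208, edgeR) and by 0.34 in mock cells (SE 0.08, adjusted p = 0.0162). The call in T-N2G cells was lost without T-N2G DEM replicate 3 or T-N2G vehicle replicate 2 (highest adjusted p 0.0719), and that in mock cells without mock DEM replicate 1 (0.0520). With the block the adjusted p of Tk1 in mock cells was 8.67e-05 (edgeR). Rrm2, the small subunit of the reductase, had -0.08 in T-N2G cells and Tyms, thymidylate synthase, -0.11, and both passed neither test there. In mock cells they passed with the block only (log2 -0.11 and -0.13, adjusted p = 0.0447 and 0.0256).

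**Figure D4:**
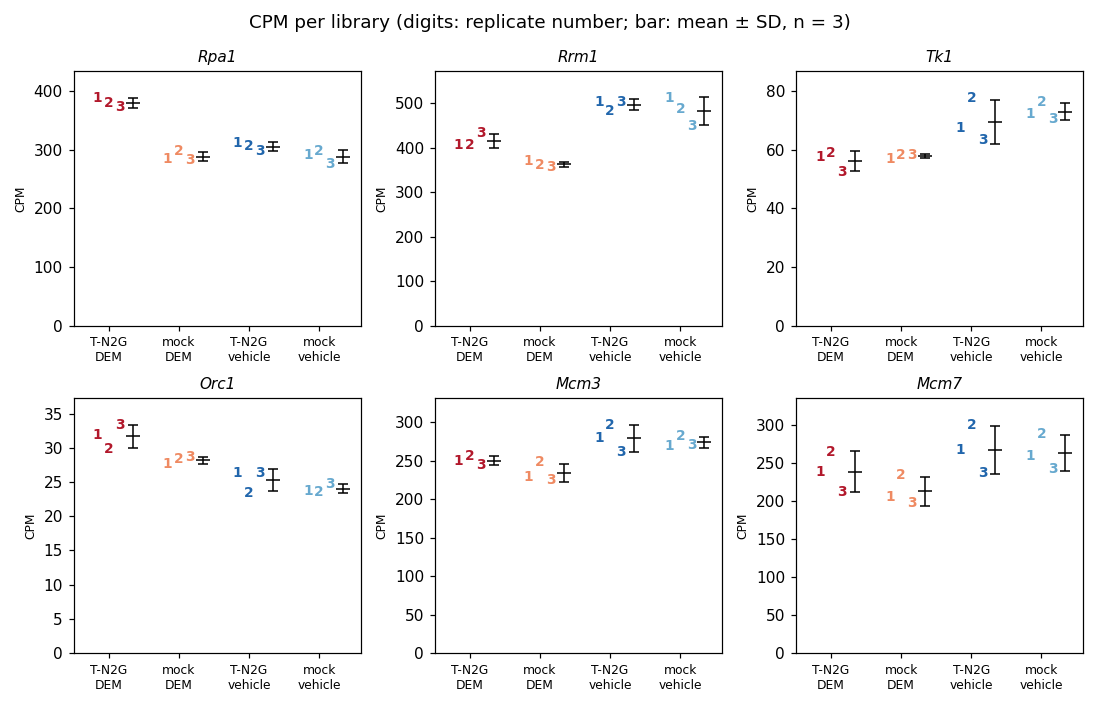
CPM per library of 6 members in the 4 groups, with digits for the replicate number, a black bar for the mean ± SD (n = 3) and each axis from 0. Rpa1 is highest in T-N2G cells under DEM (380 ± 8.39 CPM), Rrm1 and Tk1 are lower under DEM in both lines, Orc1 is higher, and Mcm3 and Mcm7 are lower with a visible spread by replicate number.

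Set beside the promoter windows, the 13 members with an E2F 8-mer had a median log2 difference under DEM of -0.11 in T-N2G cells and -0.13 in mock cells. The 19 members with a window and no match had medians of -0.01 and -0.03. With the block 7 of the 13 fell in T-N2G cells and 8 in mock cells, against 5 and 6 of the 19 and 22.2% and 21.9% of tested genes. Both groups ranged on either side of 0: Orc1, with a match, rose, and Rrm1 and Tk1, without one, fell. This is a description of the members, with no test of the difference.

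T-N2G and mock cells were then compared under DEM and in vehicle. These are separate cell lines, so an effect of the tethered heterodimer and any other difference between the lines cannot be told apart. Under DEM 1 member was higher in T-N2G cells and 0 were lower, against 2.61% and 1.11% of tested genes. That member was Rpa1, with 380 ± 8.39 CPM in T-N2G cells and 288 ± 7.96 CPM in mock cells (SD, n = 3 each). Its log2 difference was 0.40 ± 0.05 (SE; 1.32-fold, adjusted p = 0.000612, edgeR), it held without each library in turn (highest adjusted p 0.00642), and with replicates 1 and 2 alone it was again 0.40 (adjusted p = 0.0371). With the replicate block 6 members were higher and 0 lower, against 10.3% and 9.32% of tested genes. Besides Rpa1 these were Mcm5 and Mcm7, Pola1 and Pola2, and Rrm1.

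The differences under DEM that passed in edgeR with the block only were smaller than that of Rpa1. Rrm1 had 414 ± 16.0 CPM in T-N2G cells and 362 ± 6.4 CPM in mock cells, which did not overlap. Its log2 difference was 0.20 (edgeR, adjusted p = 0.108 without and 0.00510 with the block). DESeq2, fitted without the block, also called Rrm1 higher (adjusted p = 0.029). Pola1 had 145, 152 and 142 CPM in T-N2G cells and 130, 136 and 124 CPM in mock cells, also without overlap (log2 0.17, adjusted p = 0.257 and 0.00502). The groups of Mcm7 (log2 0.17, adjusted p = 0.554 and 0.00496), Mcm5 (log2 0.14, 0.326 and 0.0141) and Pola2 (log2 0.13, 0.455 and 0.0386) overlapped, while each of their 3 same-numbered pairs was higher in T-N2G cells. In all, 18 members were higher in T-N2G cells in all 3 pairs, against 23.8% of tested genes, and 5 were lower, against 24.8%. Groups did not overlap for 7 higher and 1 lower members, against 10.3% and 9.35% of tested genes. The median log2 difference over the members was 0.05 (-0.00 over all tested genes). Of the most abundant members of the 8 roles, Rpa1 was called, and Mcm7 and Rrm1 passed in edgeR with the block only. Pcna had 0.06, Gins4 0.01, Orc6 0.08, Lig1 0.01 and Pold2 -0.14, and none of these 5 passed with or without the block.

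In vehicle 0 of 39 members were called between T-N2G and mock cells, against 0.313% of tested genes. No member reached an unadjusted p under 0.05 in edgeR, and DESeq2 and the fit with the block called 0 members as well (6.30% of tested genes with the block). Groups were apart for 2 higher and 0 lower members, against 5.11% and 5.09% of tested genes, and 9 members were higher and 5 lower in all 3 same-numbered pairs, against 21.2% and 21.7%. Log2 differences lay between -0.11 for Pole2 and Rfc5 and 0.10 for Rfc3 and Rpa3, with standard errors of 0.05 to 0.15. Rpa1 had 305 ± 7.35 CPM in T-N2G cells and 288 ± 11.4 CPM in mock cells (log2 0.08 ± 0.05 SE, adjusted p = 0.921). Rrm1 had 496 ± 11.9 CPM in T-N2G cells and 482 ± 31.2 CPM in mock cells, and Mcm7 had 268 ± 31.5 CPM and 264 ± 23.7 CPM. Orc6 had a difference of 0.07, Gins4 -0.01, Pold2 -0.07, Pcna -0.03 and Lig1 -0.04.

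**Figure D5:**
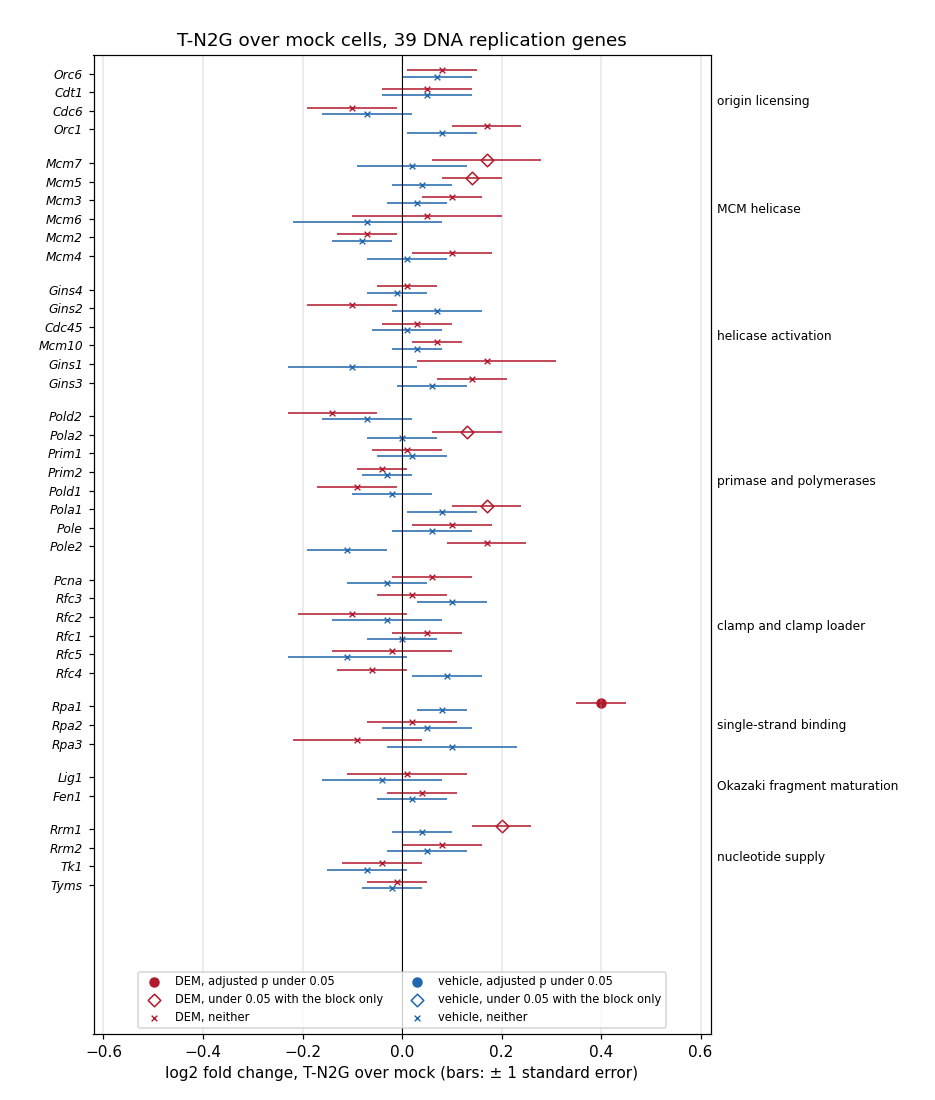
Log2 ratio of T-N2G to mock cells for each member, under DEM (red, upper mark) and in vehicle (blue, lower mark), with bars of 1 standard error and marks as in the plot of DEM effects. Vehicle values stay between -0.11 and 0.10, and under DEM Rpa1 is at 0.40 with the other members between -0.14 and 0.20.

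The response to DEM itself was then compared between the cell lines, as the effect in T-N2G cells minus that in mock cells. No member passed without the block, against 0.433% of tested genes; 2 members had an unadjusted p under 0.05 in edgeR, and DESeq2 and the fit with the block each called 1, Rpa1. For Rpa1 the difference was 0.31 ± 0.07 (log2, SE; adjusted p = 0.147), and with the block the adjusted p was 0.00161 (2.80% of tested genes called). Over the alternatives its adjusted p ran between 0.000978 and 1.00, and the difference stayed between 0.28 and 0.34. The other member with an unadjusted p under 0.05 was Pole2, named after its value was seen, with a difference of 0.28 ± 0.11 (adjusted p = 1.00, 0.141 with the block). All 6 MCM genes had a difference above 0, between 0.01 for Mcm2 and 0.14 for Mcm7, and 27 of the 39 members did, with a median of 0.03 (0.00 over all tested genes). Rrm1 had 0.16 ± 0.08. Orc6 had 0.01, Gins4 0.02, Pold2 -0.07, Pcna 0.09 and Lig1 0.05. None of these passed with or without the block.

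The DEM effects of both lines, which share no library, had Pearson r 0.741 and Spearman rho 0.781 across the 39 genes, and Pearson r 0.642 across the 12469 tested genes. Genes are not independent replicates, and libraries of both lines share their replicate numbers. In both lines 21 members were lower and 12 higher, and 6 had opposite signs (Mcm10, Gins1, Gins2, Pole2, Rfc5 and Rpa2).

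Other genes of the pathway were read from lists made for the purpose. Of 34 further replication genes 2 rose and 2 fell under DEM in T-N2G cells (5.88% each, against 10.1% and 7.55% of tested genes), and 2 rose and 1 fell in mock cells (5.88% and 2.94%, against 7.76% and 6.18%). With the block 4 rose and 10 fell in T-N2G cells (11.8% and 29.4%, against 22.8% and 22.2% of tested genes), and 6 rose and 9 fell in mock cells (17.6% and 26.5%, against 20.9% and 21.9%). Rif1, which controls replication timing, fell in both: it had 71.5, 73.0 and 75.4 CPM in T-N2G cells under DEM against 106, 99.2 and 104 CPM in vehicle, and 78.4, 70.8 and 77.7 CPM in mock cells under DEM against 102, 101 and 96.3 CPM in vehicle. The groups were apart, and Rif1 fell by 0.50 on the log2 scale in T-N2G cells (adjusted p = 0.000299, edgeR) and by 0.40 in mock cells (adjusted p = 0.00202). In T-N2G cells Mcm8, a helicase relative active in recombination, rose by 0.39 (adjusted p = 0.00748), and Chtf18, a subunit of the alternative clamp loader of sister chromatid cohesion, fell by 0.32 (adjusted p = 0.00673). Both passed in mock cells with the block only (log2 0.25 and -0.18, adjusted p = 0.00857 and 0.00911, edgeR). Dbf4, the activator of the kinase that fires origins, rose by 0.28 and 0.27 in T-N2G and mock cells (adjusted p = 0.0326 and 0.0483), and the calls were lost without any of 5 and of 9 libraries. Orc5 rose by 0.35 in mock cells (adjusted p = 0.0442), a call lost without any of 8 libraries.

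Of 18 further genes of nucleotide supply 1 rose and 0 fell in T-N2G cells (10.1% and 7.55% of tested genes), and 1 rose and 1 fell in mock cells (7.76% and 6.18%). With the block 3 rose and 5 fell in T-N2G cells (16.7% and 27.8% of the list, against 22.8% and 22.2% of tested genes), and 4 rose and 7 fell in mock cells (22.2% and 38.9%, against 20.9% and 21.9%). The 5 that fell in T-N2G cells with the block, Ctps, Dut, Nme1, Samhd1 and Umps, also fell with it in mock cells, and Dctd, the deoxycytidylate deaminase gene, rose in both (log2 0.35 and 0.25, adjusted p = 0.000411 and 0.00586, edgeR with the block); these were named after their values were seen. The gene that rose in both was Rrm2b, the p53-inducible small subunit of ribonucleotide reductase, while Rrm1 fell and Rrm2 passed in mock cells with the block only. Rrm2b had 31.3, 27.8 and 28.9 CPM in T-N2G cells under DEM and 19.2, 17.1 and 21.1 CPM in vehicle. In mock cells it had 33.3, 27.7 and 30.9 CPM under DEM and 20, 18.8 and 17.9 CPM in vehicle. All DEM libraries were above all vehicle libraries of their line. Rrm2b rose 1.53-fold in T-N2G cells (log2 0.62 ± 0.10, adjusted p = 0.00159, edgeR) and 1.62-fold in mock cells (log2 0.70 ± 0.10, adjusted p = 0.00159). Samhd1, which degrades deoxynucleotides, fell by 0.19 in mock cells (adjusted p = 0.0248).

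Regulators upstream of replication were set beside the members. Of 32 regulators of the G1/S transition 1 rose and 5 fell in T-N2G cells under DEM (3.12% and 15.6%, against 10.1% and 7.55% of tested genes), and 1 rose and 2 fell in mock cells (3.12% and 6.25%, against 7.76% and 6.18%). With the block 6 rose and 12 fell in T-N2G cells (18.8% and 37.5%, against 22.8% and 22.2%), and 4 rose and 12 fell in mock cells (12.5% and 37.5%, against 20.9% and 21.9%). Cdk4, the cyclin D kinase, fell by 0.22 in T-N2G cells and 0.27 in mock cells (adjusted p = 0.0146 and 0.00660), and Ccnd1, cyclin D1, fell by 0.83 in T-N2G cells (adjusted p = 0.0295). The log2 difference of Ccnd1 in mock cells was -0.56 and passed with the block only (adjusted p = 5e-05, edgeR). Cyclin E1, Ccne1, fell by 0.49 in T-N2G cells (adjusted p = 0.0197), and Rbl1, a pocket protein that binds E2F, rose by 0.37 in T-N2G and 0.29 in mock cells (adjusted p = 0.0111 and 0.0418). In mock cells Cdkn2b, an inhibitor of Cdk4, fell by 0.35 (adjusted p = 0.00827). Of 16 p53 targets and cell cycle brakes 1 rose and 8 fell in T-N2G cells (6.25% and 50%, against 10.1% and 7.55% of tested genes), and 1 rose and 3 fell in mock cells (6.25% and 18.8%, against 7.76% and 6.18%). With the block 1 rose and 12 fell in T-N2G cells (75% lower, against 22.2%), and 1 rose and 11 fell in mock cells (68.8% lower, against 21.9%), Cdkn1a, the p21 gene, among those added in both (log2 -0.75 and -0.67, adjusted p = 4.99e-06 and 9.56e-06, edgeR with the block). Plk2 fell by 1.08 in T-N2G cells (2.11-fold, adjusted p = 6.6e-05) and by 0.78 in mock cells (1.72-fold, adjusted p = 0.00118). In T-N2G cells Pmaip1 fell by 0.54 (adjusted p = 0.00302), Cdkn1c by 0.46 (adjusted p = 0.00342) and Gadd45b by 0.61 (adjusted p = 0.0154). Pmaip1 and Cdkn1c passed in mock cells with the block only (log2 -0.21 and -0.22, adjusted p = 0.00262 and 0.0386, edgeR). Gadd45a rose by 0.61 in mock cells (adjusted p = 0.0114), where Gadd45b fell by 0.69 (adjusted p = 0.0120) and Ccng1 by 0.63 (adjusted p = 0.0411). Both Gadd45a and Ccng1 were called in T-N2G cells as well, with log2 differences of 0.52 and -0.70 (adjusted p = 0.0189 and 0.0225, edgeR).

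Genes that act after replication in the cell cycle were set beside the members too. Of 32 mitosis genes 2 rose and 1 fell in T-N2G cells under DEM (10.1% and 7.55% of tested genes) and 0 rose and 1 fell in mock cells (7.76% and 6.18%). With the block 4 rose and 3 fell in T-N2G cells (12.5% and 9.38%, against 22.8% and 22.2%), and 2 rose and 10 fell in mock cells (6.25% and 31.2%, against 20.9% and 21.9%). In mock cells the groups of 9 mitosis genes were lower without overlap (28.1%, against 16.3% of tested genes) and 18 were lower in all 3 pairs (56.2%, against 34.5%). In T-N2G cells under DEM Kif20a rose by 0.20 and Foxm1 by 0.22 and Nuf2 fell by 0.23 (adjusted p = 0.0153, 0.0434 and 0.0312), and in mock cells Nuf2 alone fell without the block, by 0.27 (adjusted p = 0.0197). Foxm1 passed in mock cells with the block only (log2 0.15, adjusted p = 0.0057, edgeR). Of 20 E2F-linked chromatin and repair genes 0 rose and 1 fell in T-N2G cells without the block (Smc3, by 0.23, adjusted p = 0.0154), and 0 rose and 2 fell in mock cells (Smc3 by 0.20, adjusted p = 0.0387, and Hells by 0.23, adjusted p = 0.0447), against 10.1% and 7.55% of tested genes in T-N2G cells and 7.76% and 6.18% in mock cells. With the block 3 rose and 5 fell in T-N2G cells (15% and 25%, against 22.8% and 22.2%), and 1 rose and 7 fell in mock cells (5% and 35%, against 20.9% and 21.9%). Hells was among the 5 in T-N2G cells (log2 -0.11, adjusted p = 0.0403, edgeR with the block). Set against mock cells under DEM, where 2.61% of tested genes were called higher and 1.11% lower, T-N2G cells had more RNA of 1 of the 20 chromatin genes, the mismatch repair gene Msh6 (log2 0.40, adjusted p = 0.0347), and 1 of the 32 mitosis genes, Bub1b (log2 0.22, adjusted p = 0.0437). Of the p53 and brake genes Cdkn1c was higher in T-N2G cells under DEM and in vehicle (log2 0.60 and 0.84, adjusted p = 0.00142 and 0.000853), and Pmaip1 was lower under DEM (log2 -0.67, adjusted p = 0.00117). Pmaip1 passed in vehicle with the block only (log2 -0.35, adjusted p = 0.000307, edgeR). The lists of further replication genes, nucleotide supply and G1/S regulators held 0 calls between T-N2G and mock cells in either medium without the block. With it, under DEM, 3 further replication genes were higher (Tipin, Top1 and Topbp1) and 2 lower (Donson and Pold4), 3 nucleotide supply genes were higher (Atic, Dck and Paics) and 1 lower (Tk2), and 3 G1/S regulators were higher (Cdkn2b, E2f7 and Skp2) and 3 lower (Ccnd1, Ccnd2 and Cdk6). In the same fit 4 chromatin genes were higher and 1 lower, 6 mitosis genes higher and 1 lower, and 1 p53 or brake gene higher and 9 lower, against 10.3% and 9.32% of tested genes. In vehicle the block called 3 G1/S regulators lower (Ccnd2, Cdk6 and Rb1) and 2 p53 or brake genes higher and 5 lower, against 6.30% of tested genes in either direction. No list held a call for the difference of the DEM effects without the block; with it Msh6 was higher (log2 0.37, adjusted p = 0.00340) and Btg2, Plk2 and Pmaip1 were lower (log2 -0.52, -0.30 and -0.33, adjusted p = 0.0320, 0.00892 and 0.0152), against 2.80% of tested genes. These block-only genes were named after their values were seen. Of the calls named from these lists without the block, those of Rif1, Chtf18, Mcm8, Rrm2b, Cdkn2b, Plk2, Pmaip1 and Cdkn1c held without each library in turn. So did those of Cdk4 and Gadd45a in mock cells. In T-N2G cells Cdk4 missed the threshold once T-N2G DEM replicate 1 was left out (adjusted p = 0.0577) and Rbl1 once T-N2G vehicle replicate 1 was (0.0505). In the same cells Gadd45b lost its call without T-N2G DEM replicate 2 or T-N2G vehicle replicate 1 (highest 0.0627), and Smc3 without T-N2G DEM replicate 1 or T-N2G vehicle replicate 3 (highest 0.0555). In mock cells Gadd45b missed it without mock DEM replicate 2 (0.0502). The remaining calls were each lost without any of 3 to 11 libraries, with adjusted p of at most 0.226. Those of Gadd45a and Ccng1 in T-N2G cells are not counted here, since their values without single libraries are not given.

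Some member values carry a limit of the counting. Exons of 10 members overlap a gene on the other strand in the GENCODE annotation (Orc6, Mcm7, Cdc45, Gins2, Rfc2, Rfc4, Rfc5, Fen1, Lig1 and Tk1). The library kit keeps strand, but without the counting setting their fragments may include those of the neighbour. Neighbours at a high level were Vps35 beside Orc6 (365 CPM) and Wsb2 beside Rfc5 (305 CPM). Also high were Eif4a2 beside Rfc4 and Cops6 beside Mcm7, at 141 CPM each, while Afmid beside Tk1 had 6.01 CPM. Processed copies are annotated for Pcna and Tyms, whose reads could be split. No such overlap or copy was found for Rpa1, Rrm1, Orc1 or the MCM genes other than Mcm7.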

How the data were processed

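Polyadenylated RNA of 12 libraries in 4 groups of 3 was measured, and sample titles were joined to the table's conditions by the key in the series description. The tools named in the submitters' processing notes are Cuffdiff 2.1.1, TopHat2 2.0.8b and bcl2fastq 2.16.0.10, with genome build mm9; strand setting and gene annotation are not given in the sources used here. The authors deposited an estimated count of fragments per gene and library, named raw fragments per the file headers, of which 98.3% were whole numbers (tolerance 0; all member values were). The authors also deposited FPKM, in which fragments are divided by transcript length and library size. The 2 other value columns were not used, and a FAIL status touched 17 genes and 0 members.

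Counts were rounded and fitted in R 4.3.3 with edgeR 4.0.16. The filter (filterByExpr, minimum count 10, minimum total 15) kept 12469 genes, TMM factors were 0.980 to 1.028, and 1 quasi-likelihood fit held all 12 libraries and the 4 group means, leaving 8 residual degrees of freedom. A gene was called at 0.05 on its Benjamini-Hochberg adjusted p, with every tested gene in the adjustment. A fold change's standard error is its size divided by the square root of F. CPM used effective library sizes. The fit was tested on simulated data. Alternatives were the replicate block, RLE factors, DESeq2 1.42.0, no filter, limma 3.58.1 on log2(FPKM + 1) and log2(FPKM + 0.1), replicates 1 and 2 alone, and leaving out each library.

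The replicate numbers come from the titles. Deviations from the group means correlated between same-numbered libraries (18 pairs, r 0.361 to 0.631), so the numbers were taken to pair the libraries. Between differently numbered libraries r was negative (36 pairs, r -0.422 to -0.00363). Deviations from a group mean sum to 0, so these negative values are no separate support for the pairing. The common biological coefficient of variation was 0.110, and 0.0428 with the block. Depth was 18863560 to 23095692 fragments per library.

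The members and lists were chosen with earlier results of these data known, so no test over a list was made and each list is given by its counts beside those of all tested genes. Values in every library are given for up to 6 members per contrast with the smallest adjusted p among those called with or without the block, and for the most abundant member of each role. Of each further list up to 4 called genes per contrast are named, and Gadd45a and Ccng1, named in mock cells, are also given in T-N2G cells. Promoter windows are RefSeq's (GRCm38.p6), and exon overlaps were read from GENCODE by gene name; coordinates of the mm9 table were not used.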

Additional observations from a re-analysis of the deposited data

Results flagged for a closer look

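Rpa1 stood out for a response to DEM that differed between the cell lines. The effect of DEM in T-N2G cells minus that in mock cells was 0.31 on the log2 scale, and the test of that difference passed with the replicate block (adjusted p = 0.00161, edgeR) and with DESeq2 (0.000978) but not without the block (0.147). Rpa1 was higher under DEM in 3 of 3 same-numbered pairs of T-N2G cells and in 1 of 3 pairs of mock cells. No other member's response differed between the lines by the test with or without the block.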

How the results depend on the processing

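Of 1664 values of 52 named member results under 32 alternative settings, 0 changed direction as called values, 158 passed the threshold where the reported fit did not and 54 no longer passed. With the replicate block 6 members were higher in T-N2G than mock cells under DEM, 5 rose and 13 fell under DEM in T-N2G cells, 16 fell under DEM in mock cells, and 1 was higher for the difference of the DEM effects. DESeq2 called 2 higher in T-N2G cells under DEM, 5 lower under DEM in T-N2G cells and 1 for the difference. Under DEM in mock cells it called Mcm2 and Mcm7 lower (adjusted p = 0.0240 and 0.0399) besides Rrm1, Tk1, Mcm3 and Mcm5, and Orc1 higher. Under DEM in mock cells 0 rose and 2 fell with no filter, and 0 rose with either FPKM pseudocount. Replicates 1 and 2 alone gave 1 rise and 0 falls under DEM in T-N2G cells, and 0 rises and 1 fall in mock cells with a median of -0.08. With the block added they gave 5 higher in T-N2G cells under DEM, 10 lower under DEM in T-N2G cells, 2 higher and 13 lower under DEM in mock cells (median -0.08) and 1 for the difference. The cause of these changes was not tested. Shares of all tested genes called are not given for these settings, apart from the block with all 12 libraries. The counts of this paragraph thus describe the settings and are not read as a result about the members. With 1 library left out, members that rose under DEM numbered 2 to 3 in T-N2G cells and 0 to 1 in mock cells, and those that fell 1 to 3 in T-N2G cells and 1 to 4 in mock cells. With the block and 1 library left out, 3 to 5 rose and 9 to 14 fell in T-N2G cells, and 1 to 3 rose and 11 to 17 fell in mock cells. In that fit 12 fell in T-N2G cells without T-N2G DEM replicate 1 or T-N2G vehicle replicate 2, and in mock cells 12 fell without mock DEM replicate 2 or 3 and 15 without T-N2G vehicle replicate 1. With 1 library left out and no block, the members' median lay between -0.01 and 0.07 under DEM for T-N2G set against mock cells, -0.02 and 0.04 in vehicle, -0.07 and -0.03 for DEM in T-N2G cells, -0.11 and -0.06 for DEM in mock cells and -0.01 and 0.06 for the difference. With the block it lay between -0.11 and -0.07 for DEM in mock cells (-0.09 without mock DEM replicate 2 or mock vehicle replicate 1). With 3 libraries a group, member differences called without the block were at least 0.21 in size on the log2 scale, and those called with it at least 0.11 (standard errors without the block 0.05 to 0.15).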
